A study of Mus musculus with 1920 samples.

Results

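The mitochondrial chromosome of the mouse carries 37 genes, and all of them were present among the 55471 genes of the count table. They were chosen by position alone, as the genes whose symbols start with mt-, and they comprised 13 protein-coding genes, 2 ribosomal RNA genes and 22 transfer RNA genes. Their reads were followed through single intestinal stem cells (ISCs) of 3 young and 4 aged mice, sequenced by a Smart-seq2 method that reads whole transcripts without molecular identifiers. Every mouse carried the allele B6.129P2-Lgr5tm1(cre/ERT2)Cle/J, in which a green fluorescent reporter and an inducible Cre sit in the Lgr5 gene, and cells with a high signal of that reporter were sorted from the small intestine. The labels call the groups Young and Old and name neither a treatment nor an age in weeks. The study gives ages in weeks for young and aged mice of its other experiments, but the sources used here do not restate them for the mice sequenced here. Of 1920 sorted cells, 1836 had at least 1000 detected genes and were kept, between 160 and 376 per mouse.

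The proteins made inside mitochondria are core subunits of the respiratory chain and of the ATP synthase: the mt-Nd genes encode subunits of complex I, mt-Cytb encodes cytochrome b of complex III, the mt-Co genes encode the catalytic core of complex IV, and mt-Atp6 and mt-Atp8 encode parts of ATP synthase. The remaining subunits are encoded in the nucleus and imported. Both strands of the small circular genome are transcribed as long precursors, which are cut at the tRNAs into single messengers and into the 12S (mt-Rnr1) and 16S (mt-Rnr2) ribosomal RNAs. In the crypt, mitochondrial activity is known to differ between stem cells, the neighbouring Paneth cells and absorptive cells, and the share of mitochondrial reads is also a usual measure of cell quality in single-cell data.

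Kept cells held a median of 305492 reads on genes, the medians per mouse ran from 211790 to 344568 reads, and Lgr5 was read in 96.9% of them. Lanes were shared by both ages in 3 of 5 lane codes, whereas young mouse 3 and aged mouse 4 each filled a lane of their own. Markers of other cells were rare: the 8 immune markers were read in 0.109% to 7.24% of cells, with the T-cell gene Cd3e at 0.545%, and the 8 stromal or endothelial markers in 0.163% to 6.32%, with the collagen gene Col1a1 at 0.327%. Each mouse counted as 1 replicate.

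Copies of mitochondrial DNA in the nuclear genome share sequence with some of these genes, so the sequences are shown before the values. The annotated transcripts of GRCm38 (GENCODE M21) hold a run of 7 pseudogenes on the minus strand of chr1:24611535-24616197, a span of 4663 bases, that repeats the mitochondrial map from mt-Co1 to mt-Nd4. The copies Gm28661 of mt-Co2 (681 of 681 aligned bases), Gm10925 of mt-Atp6 (678 of 678), Gm28437 of mt-Co3 (783 of 783) and Gm10222 of mt-Nd4l (294 of 294) were identical to their mitochondrial counterparts, and Gm28439 was identical to the first 876 bases of mt-Nd4. The start of mt-Co2 and of its copy shows what such identity means for a short read, since the lines below hold no base that could place a read on one or the other.
mt-Co2: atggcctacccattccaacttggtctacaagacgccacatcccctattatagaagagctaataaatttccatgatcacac
Gm28661: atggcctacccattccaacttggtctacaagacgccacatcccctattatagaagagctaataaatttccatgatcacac

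The copy of mt-Nd3, Gm28438, differed at 1 of 345 aligned bases (T3C, counted from 1 at the start of the gene, with the mitochondrial base first). The lines below start at base 1, and the capital marks the differing base.
mt-Nd3: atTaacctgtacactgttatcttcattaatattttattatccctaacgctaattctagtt
Gm28438: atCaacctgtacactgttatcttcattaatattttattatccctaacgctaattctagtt

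Gm29216 covers bases 1054 to 1545 of mt-Co1 and carries 6 differences, all at its beginning: T1056A, C1057T, A1059G, A1060G, C1062A and A1066T. The stretch below starts at base 1054 of mt-Co1, with the 6 differing bases in capitals, after which the sequences run on without a difference.
mt-Co1: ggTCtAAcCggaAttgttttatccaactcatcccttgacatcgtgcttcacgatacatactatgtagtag
Gm29216: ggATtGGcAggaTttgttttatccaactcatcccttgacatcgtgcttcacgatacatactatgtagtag

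The ribosomal RNA that dominated the reads had no copy of this kind. Of its 50-base windows, 1.04% were found in an annotated nuclear transcript, a short protein-coding gene on chromosome 6 (Gm20594). The stretch from base 365 to base 434 of mt-Rnr2 is shown with its longest run of A in capitals, because the first strand of these libraries was primed with an oligo of T.
mt-Rnr2: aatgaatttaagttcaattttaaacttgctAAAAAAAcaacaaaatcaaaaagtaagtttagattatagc

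Runs of A were short in every member, from 2 to 8 bases, and the longest runs (8 bases) were in mt-Nd2 and in the arginine tRNA gene mt-Tr, which had 545803 and 134 reads.

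The share of 50-base windows that also occur in an annotated nuclear gene split the messengers into separate groups. It was 100% for mt-Co2, 99.9% for mt-Co3, 99.5% for mt-Atp6, 98.8% for mt-Nd4l and 98.0% for mt-Nd3. It was 62.2% for mt-Nd4 and 51.1% for mt-Co1. It was 8.19% for mt-Nd2 and 7.61% for mt-Nd5, and 0 for mt-Nd1, mt-Nd6, mt-Cytb, mt-Rnr1 and mt-Atp8. The tRNA genes had none either, although parts of the chromosome 1 run between the annotated pseudogenes, where a copy of mt-Atp8 and of some tRNAs would lie, were not searched.

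The 37 genes received 47881801 reads, 7.53% of all reads of the kept cells, and they received them very unequally. The 16S rRNA mt-Rnr2 took 68.4% of the mitochondrial reads and the 12S rRNA mt-Rnr1 8.42%. Among the messengers, mt-Cytb took 9.61%, mt-Co1 4.71%, mt-Nd1 3.88%, mt-Nd5 2.47%, mt-Nd2 1.14%, mt-Nd4 0.992% and mt-Nd6 0.291%. These 9 genes together made up 99.9% of the mitochondrial reads, and each was read in at least 99.1% of cells.

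Levels between genes were compared in CPM per kb of gene, where CPM is the reads of a gene scaled to a total of 1000000 reads on genes in the mouse. On that scale mt-Rnr2 stood at 29503, 26225 and 38444 in young mice 1 to 3 and 26406, 32821, 29908 and 38186 in aged mice 1 to 4. The groups overlapped, and the highest values were those of young mouse 3 and aged mouse 4. The next levels on the same scale were those of mt-Rnr1 and mt-Cytb, which overlapped each other, from 5705 to 8254 for mt-Rnr1 and from 5049 to 7393 for mt-Cytb. The lowest of the 9 was mt-Nd6, the only messenger gene of the opposite strand, with 361 to 559 CPM per kb. The strand setting of the counting is not given, so its reads may include transcripts running across it on the other strand. The neighbours mt-Nd5 (791 to 1351) and mt-Nd2 (627 to 1236) overlapped in their ranges over mice, as did mt-Nd4 (452 to 649) and mt-Nd6, and the lowest mt-Nd1 value (2658 to 3574) touched the highest of mt-Co1 (1751 to 2692), although mt-Nd1 stood above mt-Co1 within each mouse. All reads of a gene were also divided by its windows without a nuclear copy in place of its whole length. Per kb of such windows mt-Co1 stood at 4845 CPM over all cells, above mt-Nd1 (3215), in place of 2293 per kb of gene. On the same scales mt-Nd4 stood at 1488 in place of 542. This division takes no counted read as coming from a shared window, which is not known here, so the values for mt-Co1 and mt-Nd4 may be too high.

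The other 6 messengers, which lie side by side on the map from mt-Co2 to mt-Nd4l, were close to the floor and together had 5686 reads, 0.0119% of the mitochondrial reads. They were mt-Nd3 with 3427 reads over all kept cells, mt-Co3 with 942, mt-Co2 with 713, mt-Atp6 with 459, mt-Atp8 with 77 and mt-Nd4l with 68. The genes on either side of the same stretch, mt-Co1 and mt-Nd4, had 2253182 and 475085 reads. In 5 of the 6 at least 98.0% of windows had an annotated nuclear copy and mt-Atp8 was the one without. The chromosome 1 pseudogenes held few reads themselves: Gm28437 had 4413, more than mt-Co3, its mitochondrial twin, and the 7 copies together had 8531. The sources used here do not say how reads that match more than one place were treated, so the levels of these 6 genes, and of the 3' end of mt-Co1 and the 5' part of mt-Nd4, are uncertain.

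**Figure D1:**
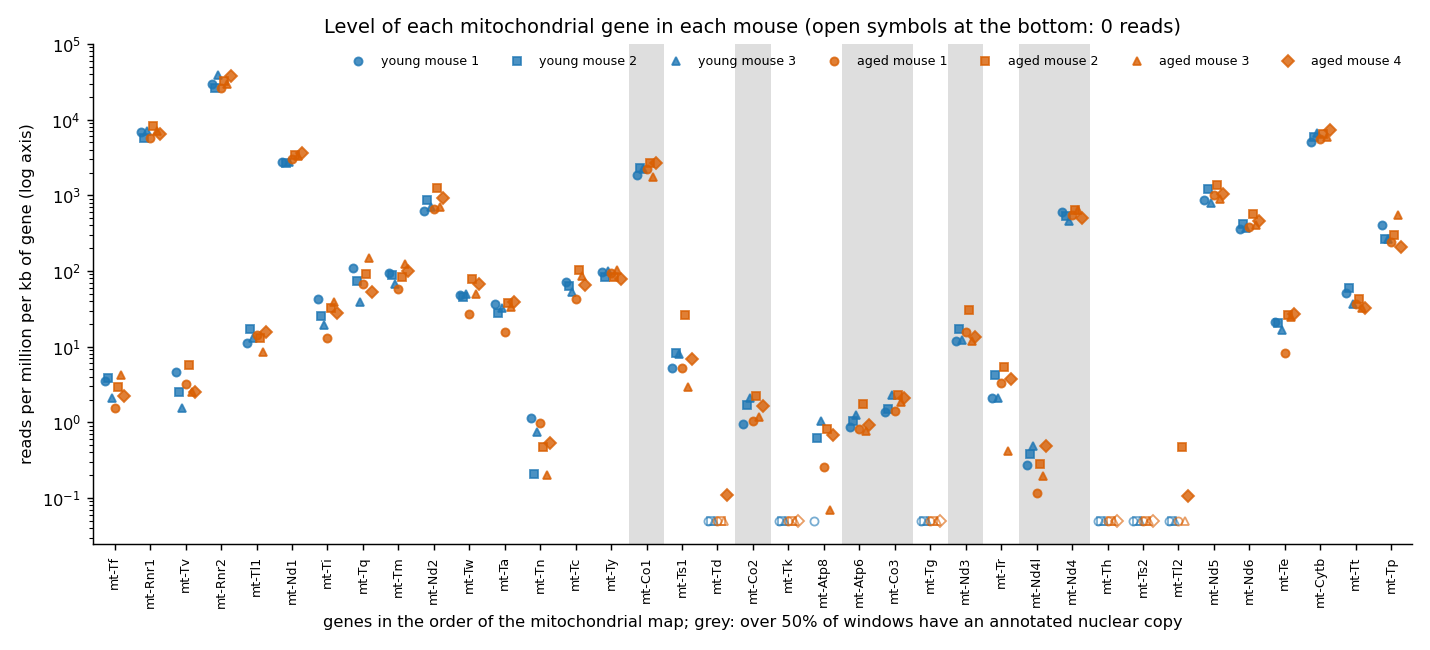
Each point is 1 mouse (young in blue, aged in orange), each column a mitochondrial gene in map order, and the vertical log axis gives CPM per kb of gene. Grey columns mark the 7 genes in which over 50% of 50-base windows have an annotated nuclear copy. The level falls from 1751 to 2692 for mt-Co1 to 0.946 to 2.24 for mt-Co2 and returns to 452 to 649 at mt-Nd4, in all 7 mice.

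The 22 tRNA genes had 35423 reads in all, 0.0740% of the mitochondrial reads, and none reached 0.1%. The proline tRNA gene mt-Tp led with 12625 reads and was read in 89.9% of cells. It is shown because its 67 bases were sequenced far more often than those of any other tRNA gene, the next being mt-Tm with 3850 reads.
mt-Tp: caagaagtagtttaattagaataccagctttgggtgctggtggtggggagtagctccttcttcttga

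The 8 tRNA genes encoded on the minus strand had 25318 reads and the 14 on the plus strand 10105, and the strand setting of the counting is not given, so reads of a tRNA and of a transcript running across it on the other strand cannot be told apart. The genes mt-Tk, mt-Tg, mt-Th and mt-Ts2 had 0 reads, which allows up to 6.27e-06% of the mitochondrial reads each, counting error only.

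The first question of the design was whether aged and young mice differ. The median mitochondrial share of reads per cell was 6.51%, 6.04% and 8.29% in young mice 1 to 3 and 6.03%, 7.45%, 6.89% and 8.25% in aged mice 1 to 4. The groups overlapped, and the highest median of each age came from the mouse that filled a lane of its own. The aged mice averaged 7.15% ± 0.935 (SD, n = 4), the young mice 6.95% ± 1.19 (SD, n = 3), and the difference of 0.207 percentage points was within the spread between mice (exact two-sided permutation test over 35 divisions, p = 0.857; the smallest this design allows is 0.0286). Within the 3 lanes that held both ages, the aged median was higher by 0.146, 1.28 and 0.381 percentage points, with young mouse 2 serving in 2 of them. Leaving out young mouse 1, young mouse 2 or aged mouse 4 turned the sign of the pooled difference, to -0.0134, -0.245 and -0.158 percentage points.

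**Figure D2:**
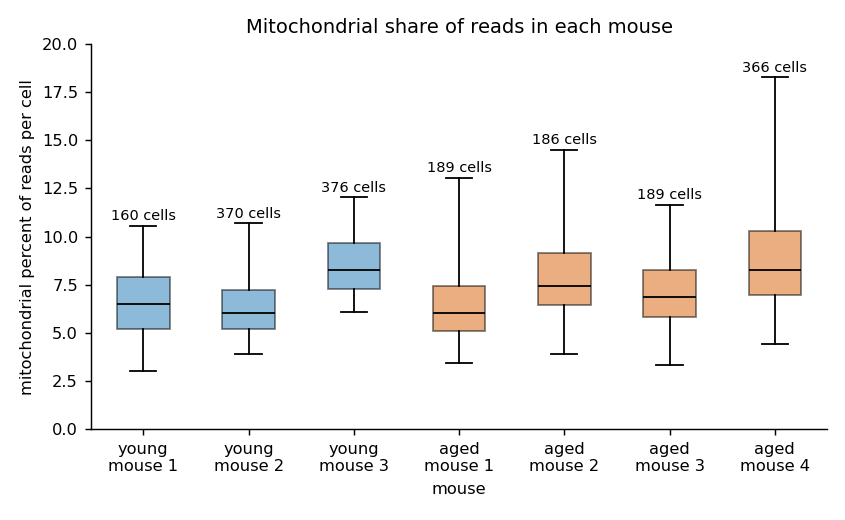
Boxes give the quartiles and the median over cells of the mitochondrial percent of reads in each mouse, and whiskers the 5th and 95th percentiles (young in blue, aged in orange). Medians lie between 6.03% and 8.29% and the ages overlap, with the longest upper whisker in aged mouse 4 (18.3%).

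The upper tail varied more than the centre. Cells with over 20% mitochondrial reads made up 0%, 1.08% and 0.798% in young mice 1 to 3 and 1.59%, 2.15%, 0.529% and 4.37% in aged mice 1 to 4, so that 3 of 4 aged mice lay above all young mice (exact permutation test, p = 0.171). These 31 cells had a median of 5028 detected genes, against 9424 in the other cells. Of them, 14 were led by the ISC markers, 12 by enterocyte markers and 4 by Paneth markers (these classes are defined further on). In aged mice 78.0% ± 7.46 (SD, n = 4) of the cells were led by ISC markers, against 90.5% ± 3.74 (SD, n = 3) in young mice (p = 0.0857 by the same exact permutation test), and the part of that shift in the tail was not tested.

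The make-up of the mitochondrial reads also overlapped between the ages. Ribosomal RNA was 76.7%, 73.0% and 80.2% of the mitochondrial reads of the median cell in young mice 1 to 3 and 73.8%, 73.9%, 75.7% and 76.4% in aged mice 1 to 4 (exact permutation test, p = 0.457). Among the 9 abundant genes the lowest p was that of mt-Nd1, a complex I subunit, which made up 3.83%, 3.98% and 3.13% of the mitochondrial reads in young mice and 4.55%, 4.12%, 4.52% and 3.96% in aged mice. Here 3 of 4 aged mice lay above every young mouse, and the difference of 0.640 percentage points had p = 0.0857 by the exact permutation test, or 0.771 after Benjamini-Hochberg adjustment over the 9 abundant genes. For the other 8 genes the unadjusted p ran from 0.457 to 0.914.

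The count test on reads summed per mouse called no mitochondrial gene. Of 20957 genes tested with edgeR's quasi-likelihood test, 0% were called at an adjusted p of 0.05 and 1098 had an unadjusted p under 0.05. Among them were 28 of the 37 mitochondrial genes, the other 9 not passing the filter on low counts, and 1 of the 28 had an unadjusted p under 0.05. That gene was mt-Nd1, at a log2 fold change of 0.35 (SE 0.146, unadjusted p = 0.0375, adjusted p = 0.904). DESeq2 called 205 of 24845 genes (0.825%), and none of them was mitochondrial. All 9 abundant genes had positive log2 fold changes, from 0.07 for mt-Rnr2 to 0.35 for mt-Nd1, none past the test, and 8 of the 9 were positive when the replicate numbers were used as a block. The median over the tested mitochondrial genes was 0.20, beside 0.01 over all genes.

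The nuclear partners were examined for the same comparison. Of 84 listed nuclear subunits of complexes I to V, 81 were tested and 0 were called, 79 of them with a positive log2 fold change, and 2 had an unadjusted p under 0.05. Their medians were 0.22 for complex I, 0.23 for complex II, 0.28 for complex III, 0.28 for complex IV and 0.24 for complex V. The complex IV list also holds Cycs, the gene of cytochrome c, an electron carrier and not a subunit of that complex. The 63 tested genes for mitochondrial transcription, RNA processing, translation and biogenesis control had 41 positive values and 0 calls, and the biogenesis regulators, such as Ppargc1a and Nrf1, had a median of -0.05. These counts describe the same 7 mice and are not independent of each other, since the genes vary together between mice.

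The second question was whether the mitochondrial share differs between the kinds of cells in the sort. Each cell was placed by whichever of 8 marker lists had the highest mean log2(CPM + 1), with CPM taken here over nuclear reads, so the classes do not use mitochondrial reads. The ISC list led 1546 cells (84.2%), the Paneth list 127 (6.92%), the enterocyte list 70 (3.81%), the goblet list 65 (3.54%), the tuft list 20, the enteroendocrine list 5 and the stromal list 3. The classes are called by their leading list, since Lgr5 was read in 92.9% of Paneth-led, 80.0% of enterocyte-led and 90.8% of goblet-led cells, and the goblet mucin gene Muc2 in 95.3% of Paneth-led cells. Wells that held more than one cell were not called.

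The Paneth-led cells, which express the lysozyme and defensin genes of the crypt-base secretory cells, had the lowest mitochondrial share among the classes of at least 10 cells. Their medians were 3.89% and 2.90% in young mice 1 and 2 and 3.63%, 7.06%, 2.61% and 5.05% in aged mice 1 to 4. The ISC-led cells of the same mice had 6.63%, 6.06%, 6.12%, 7.34%, 7.03% and 8.26%. Paneth-led cells were lower in 6 of 6 mice and the smallest difference, -0.286 percentage points, was in aged mouse 2. The mean difference was -2.72 percentage points (SD 1.37, n = 6 mice), with p = 0.0312 by the exact two-sided sign-flip permutation test, the smallest that 6 mice allow, and an adjusted p of 0.0625 over the 2 lists tested. The result therefore did not pass the correction. The difference was not found to vary with age (-2.60 percentage points in 4 aged and -2.96 in 2 young mice, exact permutation p = 0.8), a test that 4 against 2 mice could not take below 0.0667. Summed over the reads of all Paneth-led cells of a mouse in place of the median cell, the share was lower in 5 of 6 mice, and in young mouse 2 it was 7.18% against 6.37%.

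The denominator moved with this result. Alpha-defensin and other Paneth marker reads took a median of 37.1% of the reads of Paneth-led cells and 0.0490% of those of ISC-led cells. In aged mouse 2, whose Paneth-led cells had nearly the mitochondrial share of its ISC-led cells, they took 19.2%, against 33.5% to 49.2% in the other 5 mice. Among those mice, aged mouse 3 had the most marker reads (49.2%) and the lowest mitochondrial share (2.61%). Young mouse 1 had more marker reads than young mouse 2 (44.2% against 36.9%) but also a higher mitochondrial share (3.89% against 2.90%). Whether marker reads account for the low share was not tested. With the defensin genes and the Paneth, goblet and enterocyte marker reads left out of the denominator, an alternative chosen after seeing the data, the difference shrank to -0.494 percentage points (exact sign-flip permutation p = 0.312, adjusted p = 0.5) and aged mouse 2 turned to the opposite side, 9.01% against 7.37%. In the other 5 mice Paneth-led cells stayed lower, from 6.44% against 6.64% in young mouse 1 to 5.40% against 7.04% in aged mouse 3. Paneth-led cells also had fewer detected genes in 6 of 6 mice (mean difference -837).

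The count test, which rescales each sum by the trimmed mean of M-values (TMM), gave the opposite direction for single genes. That scaling moved Paneth-led against ISC-led log2 fold changes by 1.02 relative to total reads, and changes are given here relative to it. Of 26 mitochondrial genes tested 3 were higher and 0 lower, beside 5.47% of 19705 genes called higher and 4.62% called lower. The 3 were the 12S rRNA mt-Rnr1 (log2 fold change 0.89, SE 0.163, adjusted p = 0.00202), mt-Nd6 (0.78, SE 0.167, adjusted p = 0.00624) and mt-Co1 (0.45, SE 0.116, adjusted p = 0.0216), the last losing its call without aged mouse 3, aged mouse 4, young mouse 1 or young mouse 2 (adjusted p from 0.0512 to 0.0862). DESeq2 called 6 mitochondrial genes, all higher, and 14.6% of all genes. As CPM without rescaling, mt-Rnr1 was 6056 ± 2283 (SD, n = 6) in Paneth-led and 6283 in ISC-led cells, and mt-Cytb 3479 ± 1429 (SD, n = 6) against 7061, and mt-Rnr2 in CPM was higher in Paneth-led cells in 1 of 6 mice. The called gene mt-Co1 was 2373 against 3440 CPM and lower in 6 of 6 mice, and the called mt-Nd6 was 199.7 against 219.8 CPM and higher in 3 of 6, so the direction turned with the scaling for the group as a whole and for the means of the 3 called genes. The median log2 fold change was 0.39 over the 26 genes and -0.15 over all genes after TMM, and -0.63 over the 26 on total reads.

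The make-up of the mitochondrial reads does not depend on that scaling. The 12S rRNA mt-Rnr1 made up 14.1%, 12.7%, 11.1%, 12.6%, 12.0% and 10.3% of the mitochondrial reads in Paneth-led cells of young mice 1 and 2 and aged mice 1 to 4, and 9.55%, 8.45%, 8.52%, 9.34%, 9.61% and 6.91% in the ISC-led cells of the same mice. It was higher in 6 of 6 mice and the 2 ranges did not overlap, a mean gain of 3.42 percentage points (SD 0.864). The messenger mt-Cytb went the other way, from 9.77% ± 0.721 in ISC-led to 6.91% ± 0.772 in Paneth-led cells (SD, n = 6), and was lower in 6 of 6. The only minus-strand messenger gene, mt-Nd6, was higher in 6 of 6 mice (0.394% against 0.305%), with the strand of its reads unknown. The share of mt-Nd1 was lower in 6 of 6 (3.70% against 4.19%). The 16S rRNA mt-Rnr2 was the same on average (67.1% in both) and higher in 3 of 6. These shares sum to a fixed total, so they are not independent of each other, and were not tested.

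The enterocyte-led cells, which express the lipid carrier and brush border genes of absorptive cells, had the highest mitochondrial share. In the 2 mice with at least 10 such cells, their median was 10.4% against 7.03% in ISC-led cells of aged mouse 3 and 13.9% against 8.26% in aged mouse 4. With at least 5 cells, 9 cells of aged mouse 2 (12.1% against 7.34%) and 6 of young mouse 3 (10.8% against 8.28%) could be added, and the difference was positive in all 4 mice, with a mean of 4.09 percentage points (exact sign-flip permutation p = 0.125, the smallest that 4 mice allow). Cells over 20% mitochondrial reads, which had few detected genes, were 12 of the 70 enterocyte-led cells. Enterocyte-led cells had a median of 171572 reads, against 317873 in ISC-led cells. With each cell thinned to 100000 reads and shallower cells left out, the mean difference over the 2 mice was 4.08 percentage points in place of 4.51. The part of cell quality in the difference was not tested.

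Summed over these 4 mice, a comparison added after seeing the data, 9 of 28 mitochondrial genes tested were called higher in enterocyte-led cells by edgeR and 0 lower, beside 8.88% and 7.97% of 19240 genes called higher and lower, and DESeq2 called 14, beside 24.5% of all genes. Of the 6 abundant messengers called by edgeR, mt-Nd4 had a log2 fold change of 1.22 (SE 0.281, adjusted p = 0.00613) and mt-Nd6 one of 1.21 (SE 0.261, adjusted p = 0.00392), and the rRNA mt-Rnr1 was called at 1.04 (SE 0.341, adjusted p = 0.0447), the other 2 calls being mt-Nd3 and the glutamine tRNA gene mt-Tq. The count fell from 9 to 1 without aged mouse 2, to 1 without aged mouse 4 and to 4 without young mouse 3, and rose to 13 without aged mouse 3. On the nuclear side 20 of 81 genes of the respiratory subunit lists (24.7%) were higher and 0 lower. Among them were the electron carrier cytochrome c (Cycs, 1.47, SE 0.313, adjusted p = 0.00358) and the subunit gene Cox5a (1.02, SE 0.256, adjusted p = 0.0109), both counted in the complex IV list. Of the 63 genes for mitochondrial transcription, RNA processing, translation and biogenesis control, 2 (3.17%) were higher and 11 (17.5%) lower. The higher ones were the coactivator of mitochondrial biogenesis Ppargc1a (2.50, SE 0.238, adjusted p = 6.24e-07) and the stress-response transcription factor gene Nfe2l2 (0.95, SE 0.227, adjusted p = 0.00824). The related coactivator Pprc1 was lower (-1.08, SE 0.312, adjusted p = 0.0250), and the mitochondrial DNA packaging factor Tfam (-1.03, SE 0.236, adjusted p = 0.00605) and Ssbp1 (-0.98, SE 0.274, adjusted p = 0.0204), which binds single-stranded mitochondrial DNA, were lower too. In the Paneth-led comparison 14 of 81 nuclear subunits (17.3%) were lower and 0 higher by edgeR, beside 4.62% and 5.47% of all genes. The complex I gene Ndufa9 led them (-0.95, SE 0.168, adjusted p = 0.00146). Of the 63 other genes 6 (9.52%) were lower and 0 higher in that comparison. These Paneth-led calls are after TMM, which moved the log2 fold changes by 1.02 relative to total reads.

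The goblet-led cells did not stand apart. Young mouse 3 had a median of 8.58% and aged mice 2 and 4 medians of 10.9% and 7.49%, against 8.28%, 7.34% and 8.26% in ISC-led cells, on both sides of them (exact sign-flip permutation p = 0.750, smallest possible 0.25). Of 26 mitochondrial genes 0 were called by edgeR over 5 mice with at least 5 cells, beside 3.04% of all genes, with none under an unadjusted p of 0.05, and DESeq2 called 0, beside 8.95% of all genes. Over all cells, the 20 tuft-led cells had a median of 6.86% and the 5 enteroendocrine-led cells one of 5.28%, and the 3 stromal-led cells one of 3.43% at a median of 14095 reads.

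**Figure D3:**
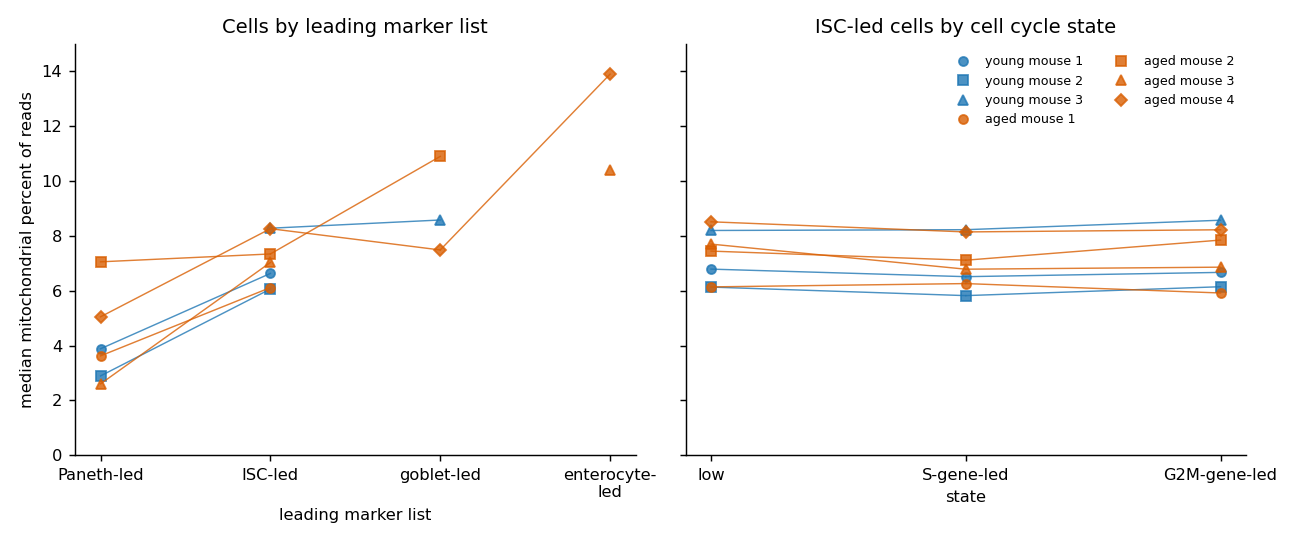
Each point is the median mitochondrial percent of reads of 1 mouse (young in blue, aged in orange) for cells of 1 leading marker list (left) or 1 cell cycle state of ISC-led cells (right), shown where the mouse has at least 10 such cells. Paneth-led cells lie below ISC-led cells in 6 of 6 mice, and the enterocyte-led cells of 2 mice lie at 10.4% and 13.9%.

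The third question was the cell cycle. ISC-led cells were divided by scores of S-phase genes, such as the replicative helicase genes Mcm2 to Mcm7, and of G2 and mitosis genes, such as Top2a and Mki67, into 499 S-gene-led cells, 494 G2M-gene-led cells and 553 cells low in both. The score is a range, and 197 of the 1546 cells lay within 0.1 of a threshold. In low cells the median mitochondrial share was 7.28% ± 0.951 (SD, n = 7 mice), in S-gene-led cells 6.98% ± 0.917 and in G2M-gene-led cells 7.18% ± 1.04. S-gene-led cells were lower than low cells in 5 of 7 mice, with a mean difference of -0.293 percentage points (exact sign-flip permutation p = 0.0625, adjusted p = 0.125), and G2M-gene-led cells in 4 of 7 (p = 0.609 by the same permutation test). The call turned with the summary of the cells. With the mean of cells in place of the median, the differences were -0.770 for S-gene-led and -0.612 percentage points for G2M-gene-led cells, both with an adjusted p of 0.0469 by the exact sign-flip permutation test. Summed over the reads of a mouse, the share was lower in 7 of 7 mice in both states, with mean differences of -0.673 and -0.603 percentage points from 7.84% ± 0.900 (SD, n = 7) in low cells. The within-mouse differences of the medians for S genes were not found to vary with age (exact permutation p = 0.486), nor were those for G2M genes (p = 0.343, exact permutation test). The median number of detected genes was higher in 7 of 7 mice in both cycling states, with means of 8341 in low, 9547 in S-gene-led and 9857 in G2M-gene-led cells.

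The make-up of the mitochondrial reads also differed between the states. In low cells mt-Rnr2 made up 71.1%, 66.6% and 73.2% of the mitochondrial reads in young mice 1 to 3 and 66.9%, 68.1%, 70.0% and 71.2% in aged mice 1 to 4. In G2M-gene-led cells it made up 66.4%, 63.4% and 70.1% in the young and 63.3%, 63.6%, 65.7% and 67.7% in the aged mice. The 16S rRNA was thus lower in 7 of 7 mice, with a mean difference of -3.82 percentage points (SD 0.659), although mice of either state overlapped. In the count test mt-Rnr2 fell in both cycling states, with a log2 fold change of -0.23 (SE 0.0368, adjusted p = 0.00321) in S-gene-led and -0.23 (SE 0.0291, adjusted p = 4.65e-04) in G2M-gene-led cells. DESeq2 called it in both (adjusted p = 0.0327 and 0.0163), and it kept its call without any one of the mice.

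In S-gene-led cells mt-Rnr2 was the 1 mitochondrial gene called of 26 tested, beside 2.00% of 20216 genes called lower and 4.61% called higher, and DESeq2 also called 1, beside 13.6% of all genes. In G2M-gene-led cells 4 of 25 were called, 2 higher and 2 lower, beside 6.80% of 20107 genes called higher and 4.38% called lower. The 2 higher were mt-Cytb (0.20, SE 0.0454, adjusted p = 0.0163) and mt-Nd1 (0.25, SE 0.0657, adjusted p = 0.0352), and the second lower gene was mt-Co1 (-0.16, SE 0.0425, adjusted p = 0.0362). These 3 were less stable: DESeq2 called none of them (adjusted p from 0.0774 to 0.119) and 3 mitochondrial genes in all, beside 19.4% of all genes, and the count was 1 without aged mouse 2 or young mouse 3 and 2 without aged mouse 4 or young mouse 2.

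Per mouse, the share of mt-Cytb was higher in G2M-gene-led than in low cells in 7 of 7 mice, at 9.37%, 12.2% and 10.6% against 7.77%, 9.39% and 8.53% in the young and 11.3%, 10.7%, 11.5% and 11.6% against 10.1%, 8.14%, 7.37% and 9.73% in the aged. The share of mt-Nd1 was also higher in 7 of 7 mice in G2M-gene-led cells (4.42% ± 0.559 against 3.38% ± 0.509, SD, n = 7) and in S-gene-led cells (4.26% ± 0.484). The complex I messenger mt-Nd2 showed 7 of 7 in both states as well, by 0.246 percentage points in G2M-gene-led and 0.214 in S-gene-led cells. Among the other complex I messengers, mt-Nd4 was higher in 7 of 7 mice in G2M-gene-led cells (1.12% against 1.02%) and in 4 of 7 in S-gene-led cells. The share of mt-Nd5 was higher in 7 of 7 in S-gene-led (2.77% against 2.35%) and in 6 of 7 in G2M-gene-led cells. The complex IV messenger mt-Co1 did not share in this, being higher in 3 of 7 mice in G2M-gene-led cells and in 5 of 7 in S-gene-led cells. These shares sum to a fixed total in which mt-Rnr2 was lower, so they are not independent of each other, and were not tested. In CPM mt-Nd4 was higher in 3 of 7 mice in G2M-gene-led cells (792 against 790) and in 1 of 7 in S-gene-led cells. By that measure mt-Nd1 was higher in 7 of 7, mt-Nd2 in 6 of 7 and mt-Nd5 in 5 of 7 in both states. The CPM of mt-Co1 was higher in 0 of 7 in G2M-gene-led and in 1 of 7 in S-gene-led cells.

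**Figure D4:**
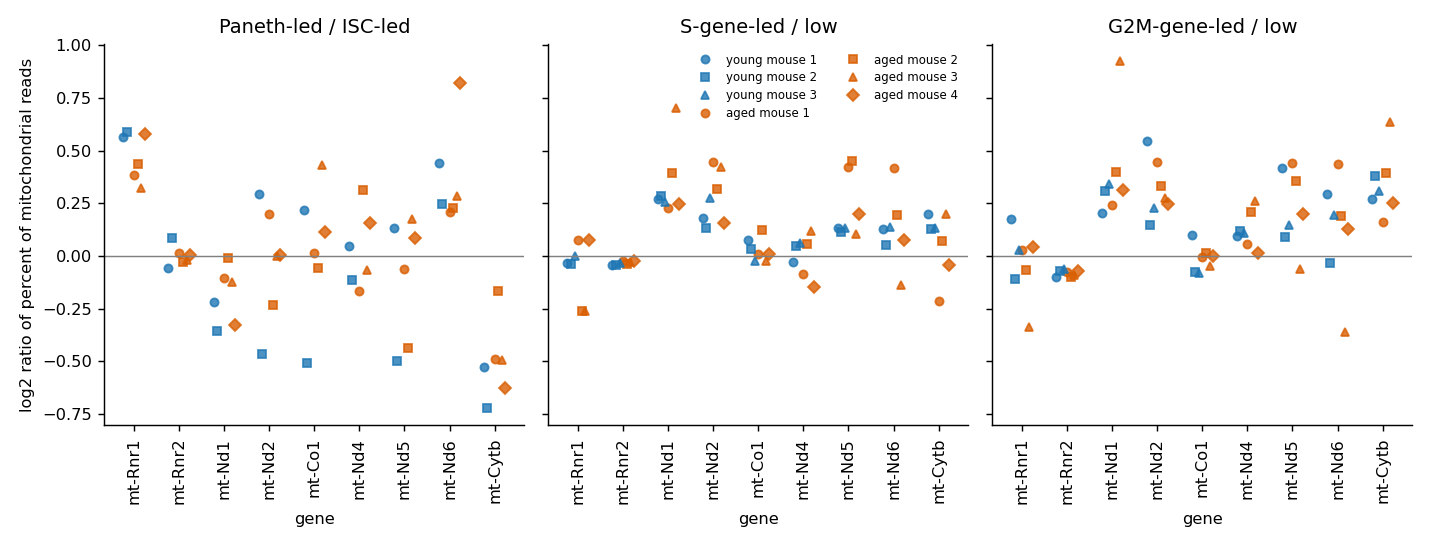
Each point is 1 mouse (young in blue, aged in orange) and gives the log2 ratio of a gene's percent of mitochondrial reads between the named classes of cells, for the 9 abundant genes on the horizontal axis. In Paneth-led cells, whose shares do not depend on the scaling of the counts, mt-Rnr1 and mt-Nd6 lie above 0 and mt-Cytb and mt-Nd1 below it in 6 of 6 mice, and in G2M-gene-led cells mt-Rnr2 lies below 0 and mt-Nd1, mt-Nd2, mt-Nd4 and mt-Cytb above it in 7 of 7.

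In G2M-gene-led cells 18 of 81 nuclear subunits (22.2%) were higher and 0 lower, beside 6.80% and 4.38% of all genes, led by the ATP synthase gene Atp5g3 (0.49, SE 0.0759, adjusted p = 0.00175). In S-gene-led cells 6 of 81 (7.41%) were higher and 1 lower, beside 4.61% and 2.00% of all genes, led by Atp5g3 again (0.32, SE 0.0643, adjusted p = 0.0123), with the complex I gene Ndufa6 as the lower one (-0.39, SE 0.0899, adjusted p = 0.0250). Of the 63 genes for transcription, RNA processing, translation and biogenesis control, 5 (7.94%) were higher and 0 lower in S-gene-led cells, and 2 higher and 1 lower in G2M-gene-led cells. In the list of mitochondrial transcription and replication, the exonuclease gene Mgme1 was higher in S-gene-led (1.51, SE 0.107, adjusted p = 1.06e-05) and in G2M-gene-led cells (1.48, SE 0.129, adjusted p = 2.43e-05). Ppargc1a was lower in G2M-gene-led cells (-1.04, SE 0.172, adjusted p = 0.00262) and the transcription factor gene Nrf1 higher (0.95, SE 0.194, adjusted p = 0.00872).

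**Figure D5:**
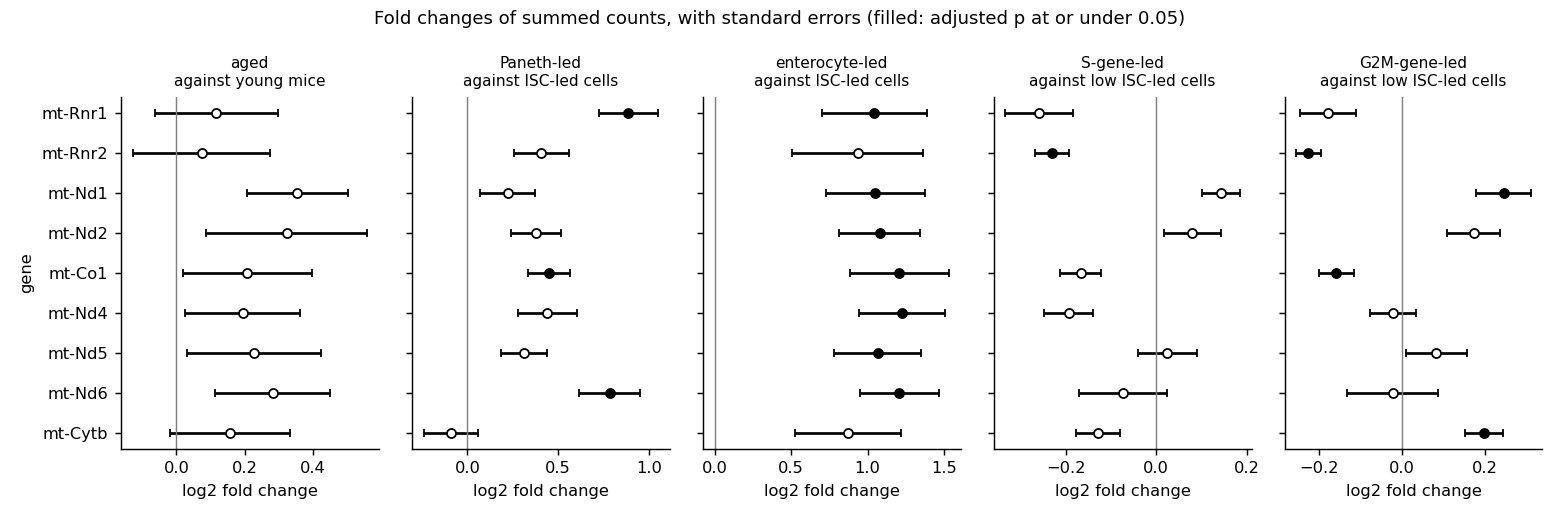
Points give the log2 fold change of summed counts for the 9 abundant mitochondrial genes and bars the standard error, in 5 comparisons with horizontal axes of their own. Filled points have an adjusted p of at most 0.05 by edgeR: none between the ages, and mt-Rnr2 below 0 in both S-gene-led and G2M-gene-led cells. The Paneth-led values are after TMM, and without it the median over the tested mitochondrial genes is -0.63 in place of 0.39.

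Across the cells of a mouse, the 9 abundant genes varied together to different degrees. Of their 36 pairs, taken as log2(CPM + 1), the median Spearman correlation over cells was between 0.414 and 0.622 in the 7 mice. The adjacent rRNA genes mt-Rnr1 and mt-Rnr2 had the highest mean over mice, 0.784 (0.718 to 0.839). Next came mt-Nd1 with mt-Cytb, 0.763 (0.681 to 0.868), and mt-Nd5 with mt-Nd6, 0.761 (0.698 to 0.832), the latter being neighbouring genes on opposite strands. Reads of mt-Nd6 and of a transcript running across it on the other strand cannot be told apart here. The lowest was mt-Nd5 with mt-Cytb, 0.246 (-0.0199 to 0.491). These values are descriptions over all kept cells, of every class, that share a mouse, a library preparation and a depth. The mitochondrial share itself ran against the reads of the cell in every mouse (Spearman -0.356 to -0.0394).

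Among 12537 nuclear genes read in at least 20% of cells, the one whose level followed the mitochondrial share most closely was Lars2, which encodes the mitochondrial leucyl-tRNA synthetase (mean Spearman over the 7 mice 0.384, from 0.260 to 0.460). It was followed by Gm15564 (0.366), Prap1 (0.358) and the complex IV subunit genes Cox7b (0.355) and Cox6c (0.342). The annotated transcripts of Lars2 (chromosome 9) and Gm15564 (chromosome 16) shared no exact 20-base window with any mitochondrial gene. That search was made after their correlations were seen, and inexact similarity was not searched. At the other end stood 5330417C22Rik (-0.305), the receptor tyrosine kinase gene Kit (-0.300), the laminin chain gene Lama5 (-0.289), the Wnt ligand gene Wnt3 (-0.247) and Cxxc5 (-0.246). The nuclear subunits of complex IV had a median of 0.287 (13 of 13 positive), those of complex V 0.249, of complex III 0.208, of complex I 0.195 and of complex II 0.132. The median of all nuclear genes was -0.02, and that of the 15 genes of mitochondrial transcription and replication 0.007. These correlations also ran over all kept cells of a mouse, so differences between the classes enter them and were not separated from variation within ISC-led cells.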

How the data were processed

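Single cells were sorted, and libraries made with an oligo of T, amplified by PCR and read from 1 end. The authors aligned reads to GRCm38 with HISAT2 and deposited whole-number counts per gene and cell. The submitters' notes also name HTSeq. Versions, annotation, strand setting and the treatment of reads with several matches are stated in none of the sources used here. Counts were used as deposited. IDs were matched to GENCODE M21 (55230 of 55471), the source of coordinates (1-based) and sequences. Cells with under 1000 detected genes were left out (84 of 1920). Intervals and floors cover counting error only, since PCR reads are not independent molecules. Medians per mouse were compared by exact two-sided permutation (ages) or sign-flip (within mice) tests. Counts summed per mouse, or per mouse and class with mouse as a block, were tested with edgeR 4.0.16 (quasi-likelihood, TMM, filterByExpr, Benjamini-Hochberg, threshold 0.05, R 4.3.3) over all genes, with DESeq2 1.42.0 as an alternative. The edgeR fit was tested on simulated data, and the DESeq2 fit was not. Classes needed 10 cells per mouse, or 5 in the count tests of enterocyte-led and goblet-led cells. Correlations used Python 3.11.15 with scipy 1.17.1. All 37 mitochondrial genes are accounted for, tRNA genes mainly by counts and ranges, with mt-Tp and mt-Tm named after their values were seen. From each nuclear list at most 3 genes per direction with the lowest p were open to naming, and from all nuclear genes read in 20% of cells the 5 with the highest and the 5 with the lowest correlation. The members and lists were chosen with earlier results of these data known.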

Additional observations from a re-analysis of the deposited data

Results flagged for a closer look

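The share of mt-Nd2, a complex I messenger, among the mitochondrial reads was 1.61% in aged mouse 2, apart from the other aged mice, which lay between 1.05% and 1.11%. It was flagged because its gap to the nearest aged mouse was a larger part of the group's range than Dixon's 95% limit for 4 samples allows. Chance flags about 1 in 20 groups, and 14 groups were tested.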

How the results depend on the processing

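The difference between aged and young mice in the mitochondrial share ran from -0.245 to 0.878 percentage points when 1 mouse at a time was left out, and that in the rRNA share of mitochondrial reads from -3.53 to 0.0532. Replicate numbers only name mice here (correlations of deviations -0.0159, 0.107 and -0.110). With them as a replicate block, the age difference in share was -0.158 percentage points. That is the value without aged mouse 4, whose number no young mouse shares, and not a separate check. The count test with that block called 0 mitochondrial genes.

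The Paneth-led difference passed the correction with at least 5 cells per mouse (-2.99 percentage points, adjusted p = 0.0469 by the exact permutation test). With a margin of 1 over the next list it was -3.16 (p = 0.0312, exact permutation test, the smallest that 6 mice allow). That margin left too few mice for enterocyte-led and goblet-led cells, so this p had no correction over lists. The Paneth-led difference did not pass with the mean of cells (-1.62, adjusted p = 0.125, exact permutation test). Nor did it pass with cells thinned to 100000 reads, which left 4 mice (-3.14, adjusted p = 0.25, exact permutation test). Leaving out 1 mouse gave -3.21 to -2.38 for Paneth-led cells, -0.238 to 1.93 for goblet-led cells, -0.181 to 0.0260 for G2M-gene-led cells and -0.418 to 0.962 for the age difference in the Paneth effect. The sign for goblet-led cells and for that age difference turned without aged mouse 2, for G2M-gene-led cells without aged mouse 3, and for the rRNA share without young mouse 3. With the mean of cells in place of the median, S-gene-led cells differed from low cells by -0.770 and G2M-gene-led cells by -0.612 percentage points, both with an adjusted p of 0.0469 by the exact permutation test. The cause was not tested.

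DESeq2 called 6 mitochondrial genes in Paneth-led and 14 in enterocyte-led cells, and 2 were called in S-gene-led cells without the filter. Leaving out 1 mouse gave 2 to 3 calls for Paneth-led, 1 to 2 for S-gene-led (2 without young mouse 1), 1 to 5 for G2M-gene-led and 1 to 13 for enterocyte-led cells. Fold changes were followed under the alternatives for the rRNA and protein-coding mitochondrial genes called in the main fits, and for mt-Nd1 between the ages. Of these values, 110 kept their direction and side of the threshold, 40 kept the direction but lost the call, and 0 reversed. Genes without a call were not counted and could turn, as mt-Cytb did in Paneth-led cells (-0.09 by edgeR, 0.03 by DESeq2).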
